A study of Homo sapiens with 2 samples.

Results

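GRAMD2B, CCL2, BCL3, FRMD4B and TMEM121, 5 of the 36601 genes in the matrix, stood higher in the hashtag pairs 1+3, 1+4 and 1+6 than in pair 1+2. Each had a mean over pairs 5+8, 6+8 and 7+8 of less than 1.1 times pair 5+7. They were chosen from measured values: a mean of at least 10 CPM (UMI counts scaled to the same total in every pair) over 1+3, 1+4 and 1+6, each of these at 1.5 times or more of 1+2, and a mean of 5+8, 6+8 and 7+8 under 1.1 times 5+7. The data go against the description of these genes as raised only in pairs with hashtag 1, because 4 of the 5 also stood at 1.5 times or more of pair 2+4 in each of pairs 2+6, 2+8 and 3+4. They are therefore called here by their rule and by their leading genes, GRAMD2B and CCL2.

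The cells were OVCAR5, an established ovarian carcinoma line, and all of them carried a reporter (CFP+) that senses interferon-gamma (IFNy). The labels name 18 conditions in 1 pool: no IFNy, 1, 10 or 100 ng/ml IFNy, each at 2, 6, 12 and 24 h, and frozen cells of 24 h, both with 100 ng/ml and unstimulated. Single cells were sequenced in droplets after staining with hashtag antibodies, so each cell carries a gene expression profile and counts of 8 hashtags. Which hashtags stand for which condition is not stated, so pairs are named by hashtag number, doses, times and freezing were not compared, and the pool counts as 1 sample with no test.

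Interferon-gamma signals through JAK kinases to GAS elements in target promoters and raises IRF1, a transcription factor that carries the response on. Inflammatory genes such as chemokines are also driven by NF-kB, whose own feedback genes include the IkB family. CCL2 (also MCP-1) is a secreted chemokine that draws monocytes through the receptor CCR2, and BCL3 is a nuclear IkB protein that binds the NF-kB subunits p50 and p52. GRAMD2B carries a GRAM domain, a membrane lipid-binding fold, and FRMD4B is a FERM-domain scaffold that binds cytohesins and takes part in epithelial polarity. TMEM121 encodes a transmembrane protein.

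In the annotation of GRCh38 (GENCODE 29), GRAMD2B (ENSG00000155324) lies at chr5:126360132-126496494 on the plus strand and CCL2 (ENSG00000108691) at chr17:34255218-34257203 on the plus strand. BCL3 (ENSG00000069399) lies at chr19:44747705-44760044 on the plus strand, FRMD4B (ENSG00000114541) at chr3:69169990-69542583 on the minus strand and TMEM121 (ENSG00000184986) at chr14:105526603-105530202 on the plus strand. All 5 are protein-coding. GRAMD2B overlaps the antisense gene AC093535.1, which is also counted in the matrix. Whether counting used strand is not stated, so reads of GRAMD2B and of this antisense gene may be mixed.

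Promoter windows of 250 bases before a transcription start were taken from RefSeq (GRCh38.p14) for 4 of the 5 genes, at 6 starts. Windows were searched on both strands for GAS (TTCNNNGAA), the ISRE core by name, AP-1 (TGANTCA), the kappa-B consensus by name, and a shorter kappa-B motif, GGAAANNCC, which can overlap the consensus. A GAS match was present in 6.567% of the 35116 promoter windows in the table, an ISRE core in 3.021%, an AP-1 match in 6.573%, a kappa-B consensus match in 9.961% and the shorter kappa-B motif in 5.485%. None of the 6 windows held GAS, ISRE core or AP-1 letters, and 3 held kappa-B letters, 1 in BCL3 and 2 at different starts of GRAMD2B. Those 3 windows are shown 5′ to 3′ on the plus strand with the match in capitals, because they are the windows of these genes that hold a match.
BCL3, chr19:44748458-44748707: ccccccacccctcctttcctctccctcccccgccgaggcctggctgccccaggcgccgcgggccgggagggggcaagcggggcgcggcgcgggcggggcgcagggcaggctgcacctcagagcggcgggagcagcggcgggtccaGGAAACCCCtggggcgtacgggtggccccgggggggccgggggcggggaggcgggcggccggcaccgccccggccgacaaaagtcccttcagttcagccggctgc
GRAMD2B, chr5:126423159-126423408: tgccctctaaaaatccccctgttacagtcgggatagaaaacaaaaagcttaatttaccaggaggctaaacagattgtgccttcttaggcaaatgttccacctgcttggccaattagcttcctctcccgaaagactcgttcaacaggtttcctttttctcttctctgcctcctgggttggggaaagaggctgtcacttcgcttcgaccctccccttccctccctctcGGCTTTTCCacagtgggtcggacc
GRAMD2B, chr5:126464900-126465149: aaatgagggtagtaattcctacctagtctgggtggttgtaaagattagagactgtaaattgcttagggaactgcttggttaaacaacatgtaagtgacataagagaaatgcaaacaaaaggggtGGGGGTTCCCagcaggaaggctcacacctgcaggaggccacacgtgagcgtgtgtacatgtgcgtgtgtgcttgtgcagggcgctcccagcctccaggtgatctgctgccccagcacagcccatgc
The BCL3 match was the shorter motif at -105 to -97 from the start, on the plus strand. The matches of GRAMD2B were the shorter motif at -24 to -16, read on the minus strand, and the consensus at -126 to -117. The windows of FRMD4B, TMEM121 and the remaining start of GRAMD2B held none of the 5 motifs. A match describes letters and shows no binding.

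The matrix held 7804 barcodes, of which 7201 passed the cell filter and 6114 had a readable pair of hashtags. These fell into 18 of 28 possible pairs, with 166 to 493 cells, 5392185 to 16184801 UMIs and a median of 27824.5 to 32945 UMIs per cell in a pair. IRF1 ran from 43.7 to 1357 CPM over the pairs. Of the epithelial markers 7 of 9 reached 1 CPM (summed level 3306 to 5604 CPM), against 0 of 8 T cell, 0 of 6 fibroblast and 0 of 5 endothelial markers, with 5 T cell, 1 fibroblast and 2 endothelial markers at 0. Of the myeloid markers 2 of 7 reached 1 CPM and 1 was at 0, with a summed level of 28.2 to 43.4 CPM.

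To read the course over all pairs, the pairs are set in 5 groups, each with 1 pair low in IRF1. The low pairs were chosen with IRF1 levels known and not from a label. IRF1 does not settle which high pairs go with which low pair. Outside the group of 1+2 the levels of the high pairs overlap between groups, so ratios to a low pair depend on this grouping. IRF1 was at 1322, 1349 and 1357 CPM in 1+3, 1+4 and 1+6, against 57.9 CPM in 1+2. It was at 1012, 1046 and 1058 CPM in 2+6, 2+8 and 3+4, against 43.7 CPM in 2+4. It was at 841, 1004 and 995 CPM in 3+7, 4+7 and 5+6, against 60.4 CPM in 3+5. The remaining pairs had 808, 1032 and 1044 CPM in 5+8, 6+8 and 7+8 against 70.8 CPM in 5+7, and 894 CPM in 2+5 against 53.6 CPM in 1+5. Every pair with a low IRF1 level thus stands beside pairs at least 10 times higher, and the hashtag pairs are parts of 1 pool and not replicates.

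CCL2, the chemokine, had the widest course of the 5 genes. It was at 27.1, 25.1 and 18.9 CPM in 1+3, 1+4 and 1+6, against 11.7 CPM in 1+2. It was at 11.8, 16.8 and 13.9 CPM in 2+6, 2+8 and 3+4, against 3.08 CPM in 2+4. Pair 1+2, low in IRF1, was therefore about as high in CCL2 as pair 2+6 and ranked 7 among the 18 pairs.

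In the other pairs CCL2 was low. It was at 3.05, 2.39 and 3.97 CPM in 3+7, 4+7 and 5+6, against 1.298 CPM in 3+5, and at 1.21, 1.39 and 1.85 CPM in 5+8, 6+8 and 7+8, against 1.67 CPM in 5+7. The lowest levels rested on few UMIs, with 1.67 CPM (9 UMIs) in 2+5 against 0.768 CPM (6 UMIs) in 1+5. From the highest pair, 1+3, to the lowest, 1+5, CCL2 spanned 35.3-fold (exact conditional 95% interval 16.0 to 97.1). The ends of this span and of the spans below were picked after sorting by level. In all 5 genes the highest pair was also one that the rule used. The intervals of spans thus leave out 1 too easily and are a description. All intervals cover counting error only, UMIs concentrated in few cells add to it, and free RNA was not subtracted.

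Within the pairs with hashtag 1, CCL2 in 1+6 was at 0.696 times 1+3 (0.570 to 0.847) and at 0.750 times 1+4 (0.616 to 0.912), beyond counting error, while IRF1 was nearly level in the same pairs. Pair 1+2 stood at 3.79 times 2+4 (2.51 to 5.87), 9.0 times 3+5 (5.61 to 15.1), 6.98 times 5+7 (4.17 to 12.4) and 15.2 times 1+5 (6.77 to 42.3) in CCL2. So among the 5 pairs low in IRF1, 1+2 carried the most CCL2, and 1+5, which shares hashtag 1, carried the least. In the order of the 18 levels, neighbouring pairs differed beyond their counting interval only between 1+4 and 1+6 and between 1+2 and 5+6. Neighbours in a sorted order lie close by construction, here and in the genes below, and the intervals were not adjusted for the number of steps.

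GRAMD2B, the GRAM-domain gene, followed a similar order. It was at 31.6, 35.5 and 37.8 CPM in 1+3, 1+4 and 1+6, against 16.9 CPM in 1+2. It was at 22.4, 23.9 and 22.2 CPM in 2+6, 2+8 and 3+4, against 10.1 CPM in 2+4. Without 2+4, these 7 pairs were the highest of the 18 in GRAMD2B, and pair 1+2 was the lowest of the 7.

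The remaining levels of GRAMD2B lay close together. They were 10.7, 12.5 and 11.2 CPM in 3+7, 4+7 and 5+6 against 7.72 CPM in 3+5, and 8.29, 10.9 and 10.7 CPM in 5+8, 6+8 and 7+8 against 9.25 CPM in 5+7. Pair 2+5 had 12.1 CPM, against 9.47 CPM in 1+5. The span from 1+6 to 3+5 was 4.90-fold (3.98 to 6.06), and the neighbouring levels that differed beyond counting error were 1+3 over 2+8, 3+4 over 1+2 and 1+2 over 4+7. Pair 1+2 alone stood 1.68 times over 2+4 (1.296 to 2.18) and 2.19 times over 3+5 (1.72 to 2.78).

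BCL3, the nuclear IkB protein, was at 22.1, 24.9 and 21.3 CPM in 1+3, 1+4 and 1+6, against 13.9 CPM in 1+2. It was at 19.5, 15.3 and 17.4 CPM in 2+6, 2+8 and 3+4, against 8.54 CPM in 2+4, and at 12.7, 13.2 and 15.1 CPM in 3+7, 4+7 and 5+6, against 8.53 CPM in 3+5. In both groups the 3 pairs high in IRF1 stood above the pair low in it. The share of all genes for which this holds was not counted. BCL3 was level only in the last group of 4, at 16.0, 16.5 and 17.9 CPM in 5+8, 6+8 and 7+8, against 16.5 CPM in 5+7, which was the highest of the 5 pairs low in IRF1. Pair 2+5 had 17.99 CPM, against 11.8 CPM in 1+5. The span from 1+4 to 3+5 was 2.92-fold (2.37 to 3.61), and among the 17 neighbouring steps only 1+5 over 2+4 lay beyond counting error.

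FRMD4B, the cytohesin-binding scaffold, was at 12.9, 14.2 and 12.9 CPM in 1+3, 1+4 and 1+6, against 6.57 CPM in 1+2. It was at 6.78, 9.96 and 6.78 CPM in 2+6, 2+8 and 3+4, against 3.29 CPM in 2+4, its lowest pair. It was at 7.503, 7.57 and 8.79 CPM in 3+7, 4+7 and 5+6, against 6.55 CPM in 3+5. Unlike CCL2 it was not low in the last pairs, with 11.1, 9.88 and 10.7 CPM in 5+8, 6+8 and 7+8 against 10.2 CPM in 5+7, and 10.2 CPM in 2+5 against 11.5 CPM in 1+5.

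Pair 1+2 ranked 16 of 18 in FRMD4B and stood at 0.642 times 5+7 (0.462 to 0.886) and 0.570 times 1+5 (0.407 to 0.796). Of the 14 pairs that the comparison with 1+2 did not use, 7 stood at 1.5 times or more of 1+2 in FRMD4B. The span from 1+4 to 2+4 was 4.31-fold (2.93 to 6.52), and 3+5 over 2+4 was the only neighbouring step beyond counting error. The ratio of FRMD4B to 1+2 is thus a ratio to 1 of its 3 lowest pairs.

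TMEM121, the transmembrane protein, varied least. It was at 10.4, 10.7 and 11.2 CPM in 1+3, 1+4 and 1+6, against 6.57 CPM in 1+2. Over the other 14 pairs it ran from 6.19 CPM in 6+8 to 10.4 CPM in 4+7, so pair 4+7 overlapped the 3 pairs that chose it. Its span was 1.81-fold (1.35 to 2.43), no neighbouring step of the 17 lay beyond counting error, and the intervals of the ratios of 1+2 to 2+4, 3+5, 5+7 and 1+5 all held 1. Of the 14 other pairs, 2 stood at 1.5 times or more of 1+2.

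**Figure D1:**
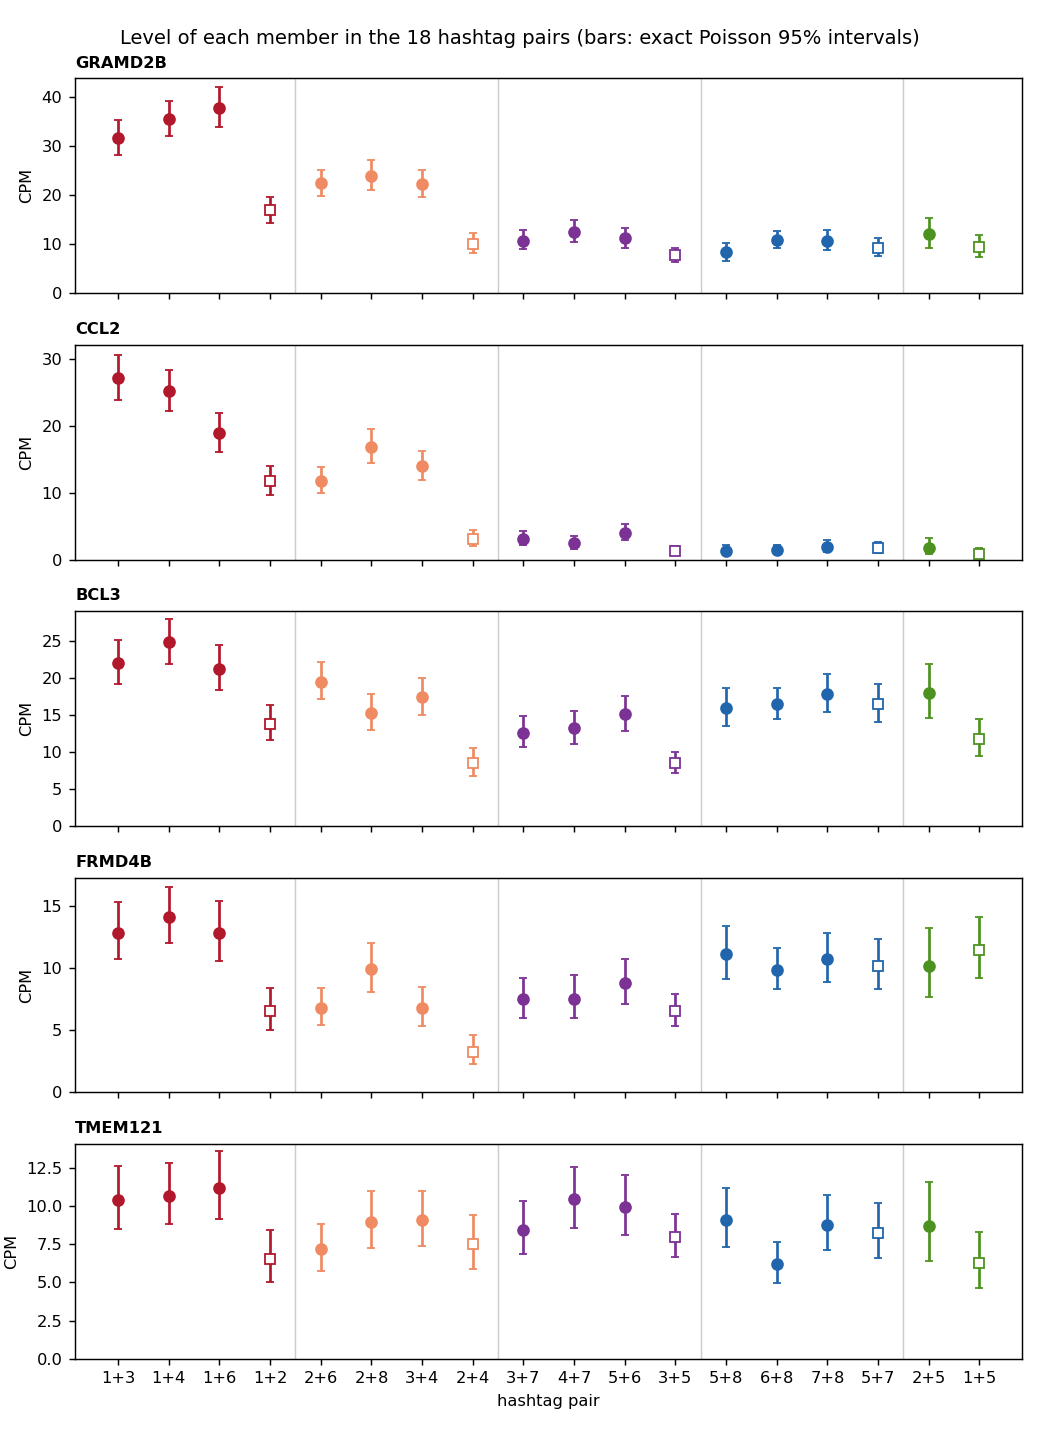
Level of the 5 genes in CPM (y axis, linear, from 0) in each of the 18 hashtag pairs (x axis), with exact Poisson 95% intervals as bars. Filled circles are pairs high in IRF1 and open squares the pair low in it, grouped by the vertical lines. CCL2 and GRAMD2B fall off to the right of pair 2+4, BCL3 and FRMD4B do not fall in that way, and no neighbouring levels of TMEM121 differ beyond counting error.

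The rule itself used the comparisons with 1+2 and with 5+7, so their ratios describe how the genes were chosen and are no finding. Summed over 1+3, 1+4 and 1+6, the ratio to 1+2 was 2.07 (1.75 to 2.46) for GRAMD2B, 2.04 (1.67 to 2.52) for CCL2, 2.03 (1.56 to 2.70) for FRMD4B, 1.65 (1.37 to 2.00) for BCL3 and 1.64 (1.246 to 2.18) for TMEM121. All 5 stood at 1.5 times or more of 1+2 by the rule, where 1.36% of the 7789 genes at 10 CPM or more did. Summed over 5+8, 6+8 and 7+8, the ratio to 5+7 ran from 0.887 (0.505 to 1.64) for CCL2 to 1.09 (0.867 to 1.39) for GRAMD2B. The CCL2 interval reaches past 1.5, so at this depth it also holds a rise of that size in 5+8, 6+8 and 7+8. Of the 5 genes, 0 stood at 1.5 times in each, against 4.33% of the 7789 genes (5.38% of genes at 10 CPM or more in 5+8, 6+8 and 7+8).

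Of the 7789 genes, 106 passed the comparison with 1+2, and their ratio of 5+8, 6+8 and 7+8 to 5+7 had a median of 3.29 (quartiles 1.93 to 7.52). A ratio under 1.1 was met by 79.4% of the 7789 genes but by 4.72% of the 106, so the 5 genes are 0.0642% of the 7789. The genes closest to the limits lay near them. Just inside were BCL3 with a lowest ratio to 1+2 of 1.54, TMEM121 with a mean of 10.8 CPM and GRAMD2B with a ratio of 1.08 to 5+7. Just outside were TPRN, ARID5A, HAS3, LRP1 and SCYL3 with means of 6.39 to 8.60 CPM. Also outside were STK19, GCLM, C1QTNF6, DHRS9 and CREM with lowest ratios to 1+2 of 1.35 to 1.38, and CEBPD, RAB2B, IRS2, FZD5 and VCPIP1 with ratios to 5+7 of 1.15 to 1.29.

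**Figure D2:**
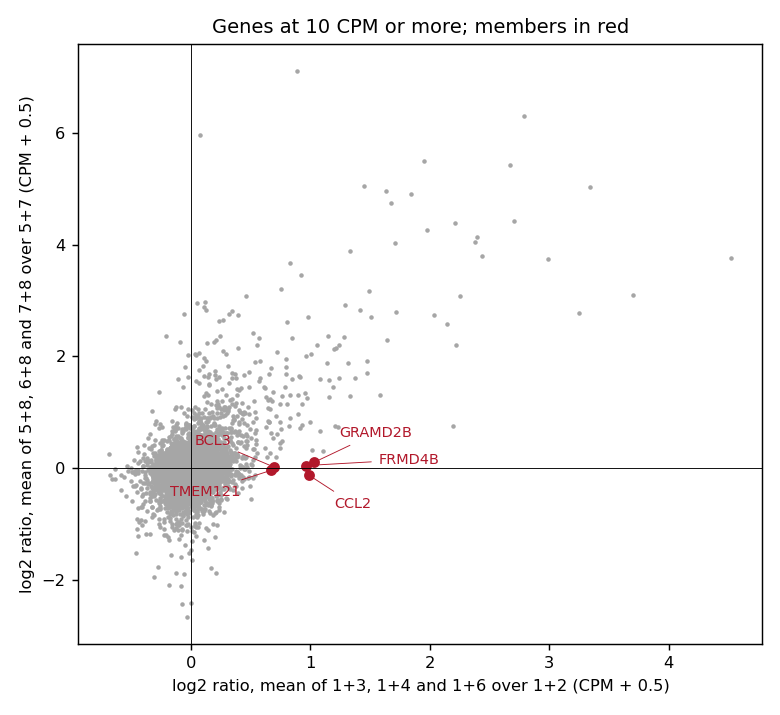
Each point is 1 of the 7789 genes at 10 CPM or more. The x axis is the log2 ratio of the mean of 1+3, 1+4 and 1+6 to 1+2, and the y axis the log2 ratio of the mean of 5+8, 6+8 and 7+8 to 5+7, with 0.5 CPM added to each level. Most genes far to the right also lie high, while the 5 genes in red lie near 0 on the y axis because the rule put them there.

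The comparison of 2+6, 2+8 and 3+4 with 2+4 was not used by the rule. GRAMD2B, CCL2, BCL3 and FRMD4B stood at 1.5 times or more of 2+4 in each of the 3 pairs, 4 of 5 genes, where 3.17% of the 7789 genes did (3.83% of genes at 10 CPM or more in 2+6, 2+8 and 3+4). Summed, the ratios were 4.54 (3.14 to 6.80) for CCL2, 2.35 (1.63 to 3.51) for FRMD4B, 2.26 (1.83 to 2.82) for GRAMD2B and 2.06 (1.63 to 2.62) for BCL3. For TMEM121 the ratio was 1.11 (0.858 to 1.46), an interval that holds 1 and leaves out 1.5. FRMD4B and TMEM121 averaged under 10 CPM in 2+6, 2+8 and 3+4. The count depends on 2+4 being taken as the low pair. FRMD4B in 2+6 and 3+4, at 6.78 CPM, was close to 3+5 at 6.55 CPM. BCL3 in 2+8, at 15.3 CPM, was below 5+7 at 16.5 CPM. GRAMD2B and CCL2 in 2+6, 2+8 and 3+4 stood above all 5 pairs low in IRF1, CCL2 in 2+6 only just.

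In 3+7, 4+7 and 5+6 against 3+5, CCL2 alone of the 5 stood at 1.5 times or more in each pair, against 3.43% of the 7789 genes (4.34% of genes at 10 CPM or more in 3+7, 4+7 and 5+6). Summed, CCL2 stood at 2.42 times 3+5 (1.502 to 4.08), at levels under 4 CPM. BCL3 stood at 1.60 times (1.32 to 1.95) and GRAMD2B at 1.48 times (1.21 to 1.83), both with intervals above 1. For FRMD4B and TMEM121 the ratios were 1.21 and 1.20, with intervals that hold 1. In 2+5 against 1+5, 2 of the 5 stood at 1.5 times or more, against 5.21% of the 7789 genes (6.3% of genes at 10 CPM or more in 2+5): BCL3 at 1.53 times (1.14 to 2.05), and CCL2 at 2.17 times (0.691 to 7.42), which rests on 9 and 6 UMIs.

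**Figure D3:**
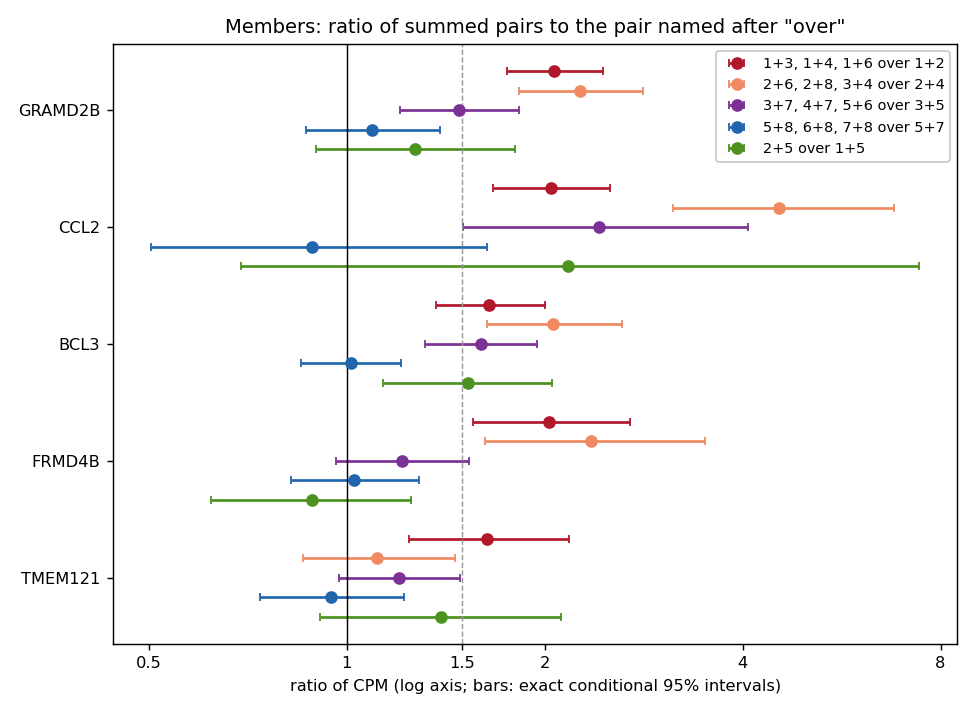
Ratio of the summed pairs high in IRF1 to the pair low in IRF1 (x axis, log scale) for the 5 genes and 5 comparisons, with exact conditional 95% intervals as bars; the solid line is at 1 and the dashed line at 1.5. The comparisons with 1+2 and 5+7 were used by the rule. In the comparison with 2+4, which the rule did not use, 4 genes lie right of the dashed line and TMEM121 does not.

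A share of cells with a UMI depends on depth, so cells were also thinned to 10000 UMIs, which kept 5956 of the 6114 cells. CCL2 was seen in 16.5%, 14.2% and 12.9% of thinned cells in 1+3, 1+4 and 1+6, against 7.79% in 1+2. Before thinning these shares were 28.97%, 23.1% and 21.7%, against 14.4%. In 1+5, with a median depth of 31787 UMIs against 28144 in 1+2, 1.65% of cells had a CCL2 UMI before thinning and 0.840% after (0.102 to 3.002%). The lowest thinned share was 0.641% in 2+5 (0.0162 to 3.52%). All cells are of 1 line, so no cell type that should lack CCL2 gives the background of free RNA, which was not measured. GRAMD2B was seen in 27.2%, 26.7% and 31.9% of thinned cells in 1+3, 1+4 and 1+6, against 15.6% in 1+2.

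CCL2 UMIs were concentrated in few cells. In 1+3, 1+4, 1+6 and 1+2 the tenth of cells with the most CCL2 held 73.4%, 80.6%, 78.8% and 86.6% of its UMIs. For GRAMD2B the same share was 35.5%, 35.8%, 31.4% and 46.3%, so GRAMD2B was spread over many more cells. Over these 4 pairs, 1043 cells had no CCL2 UMI, 168 had 1 and 38 had 2, while 88 cells with 3 or more held 70.2% of the 818 UMIs. The most in 1 cell of any pair was 27 UMIs, in 2+8. Without the 3 cells highest in each gene per pair, the ratio of the mean of 1+3, 1+4 and 1+6 to 1+2 was 2.31 for CCL2 and 2.12 for GRAMD2B, against 2.03 and 2.07 with all cells. Both then missed the rule at its other limit, with ratios of 1.12 and 1.105 to 5+7. TMEM121 missed the rule too, at 1.67 times 1+2 against 1.64 with all cells. Its ratio to 5+7 was then 0.949, inside that limit, so it failed another part of the rule.

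The 88 cells, 30, 26 and 20 of them in 1+3, 1+4 and 1+6 and 12 in 1+2, were set against the 1043 cells of the same pairs with no CCL2 UMI. Their median depth was 29460 UMIs, against 27962 UMIs in cells without CCL2. Genes were named by their ratio among the 5537 at 20 CPM or more in the 88 cells, a choice made after the values were seen; since that minimum asks for a high level in the 88 cells, ratios of genes near it are partly set by it and are not given. SAA2, an acute-phase serum amyloid A gene, was at 108 CPM in cells with CCL2, against 21.6 CPM in cells without, 5.01 times (4.34 to 5.76). SAA1, of the same family, was at 166 CPM in cells with CCL2, against 51.4 CPM in cells without, 3.23 times (2.90 to 3.59).

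SAA2 and SAA1 were each higher in the cells with CCL2 in all 4 pairs taken singly, but by unlike amounts. SAA2 was at 43.7 CPM in cells with CCL2 against 19.5 CPM in cells without in 1+4, and at 137 against 22.6 CPM in 1+3. SAA1 was at 111 against 54.2 CPM in 1+4, and at 292 against 59.6 CPM in 1+2. The interferon-induced chemokine CXCL10 was uneven between pairs: it was at 130 CPM in cells with CCL2 against 15.1 CPM in cells without in 1+4, and at 68.0 against 34.3 CPM in 1+3. In 1+6 it was at 30.9 CPM in cells with CCL2 against 27.6 CPM in cells without, and in 1+2 at 6.65 against 4.08 CPM, both with overlapping intervals. Over the 4 pairs CXCL10 was at 19.3 CPM in cells without CCL2, under the minimum of 20 CPM. It was thus named only through its level in the cells with CCL2. The part of depth in these values was not tested.

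**Figure D4:**
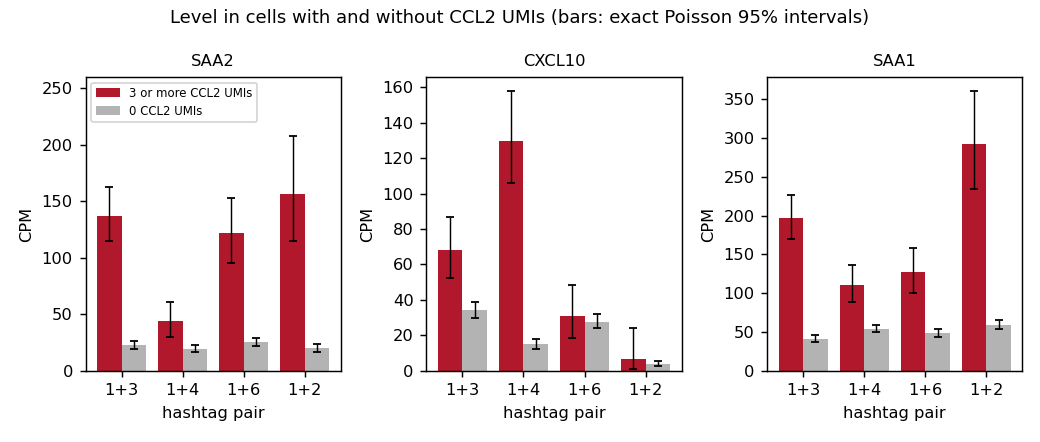
CPM (y axes, linear, from 0) of SAA2, CXCL10 and SAA1 in the 88 cells with 3 or more CCL2 UMIs (red) and the 1043 cells with none (grey), in pairs 1+3, 1+4, 1+6 and 1+2 (x axes), with exact Poisson 95% intervals as bars. The intervals of SAA2 and SAA1 do not overlap in any of the 4 pairs, while those of CXCL10 overlap in 1+6 and 1+2.

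BCL3 was read beside a list of 21 NF-kB feedback and target genes that includes it. Its own place above 1+2 and under 1.1 times 5+7 was set by the rule. List genes at 1.5 times or more in each pair of a group were 4 of the 15 at 10 CPM or more for 1+2, where 1.36% of all genes stood so high, and 9 of 14 for 2+4 (3.83% of all genes). They were 6 of 13 for 3+5 (4.34%), 9 of 14 for 5+7 (5.38%) and 9 of 13 for 1+5 (6.3%). No list gene at 10 CPM or more stood as far below in each pair of a group. Some of these genes reached 10 CPM only through the pairs high in IRF1, so the counts are a description. List genes under 10 CPM in those pairs were left out, and they went both ways. In 3+7, 4+7 and 5+6, IL1B ran from 2.87 to 3.12 CPM, against 5.81 CPM in 3+5. TNFAIP3 ran from 4.44 to 7.57 CPM in the same pairs, against 2.72 CPM in 3+5. The median ratio of the list genes at 10 CPM or more was 1.05 to 1+2, 1.92 to 2+4, 1.60 to 3+5, 1.74 to 5+7 and 1.56 to 1+5. Medians over all genes at 10 CPM or more were 1.00, 0.965, 0.947, 0.964 and 0.964 in the same order. Besides BCL3, the genes above 1+2 were ICAM1, CSF1 and SOD2.

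ICAM1, an adhesion molecule, averaged 164 CPM in 1+3, 1+4 and 1+6 against 36.8 CPM in 1+2, and 118 CPM in 5+8, 6+8 and 7+8 against 19.4 CPM in 5+7. BIRC3, an inhibitor of apoptosis, averaged 57.1 CPM in 1+3, 1+4 and 1+6 against 61.7 CPM in 1+2, and 84.0 CPM in 5+8, 6+8 and 7+8 against 27.3 CPM in 5+7. NFKBIA, which encodes the IkB-alpha inhibitor, averaged 99.9 CPM in 1+3, 1+4 and 1+6 against 123 CPM in 1+2, and 170 CPM in 2+6, 2+8 and 3+4 against 84.9 CPM in 2+4. These 2 genes were thus about level with or below 1+2 and well above the pair low in IRF1 in the other comparison.

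**Figure D5:**
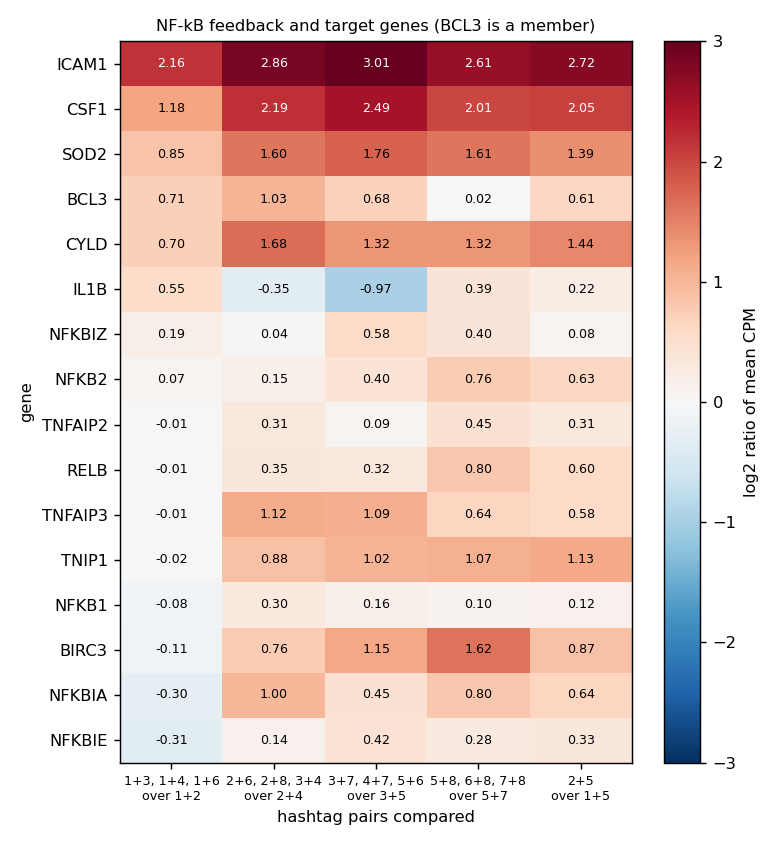
Log2 ratio of mean CPM (colour and printed value) for the 16 list genes that reached a mean of 10 CPM in at least 1 group (y axis) in the 5 comparisons (x axis). BCL3 has 0.71 over 1+2 and 0.02 over 5+7, as the rule requires, and 1.03 over 2+4, which the rule did not use. ICAM1, CSF1 and SOD2 are above 0.8 in every column.

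CCL2 was read beside a list of 15 chemokines. Of these, 4 reached 10 CPM in 1+3, 1+4 and 1+6, and CXCL2, CXCL10 and CCL2, the last by the rule, stood at 1.5 times or more of 1+2. The fourth, CXCL8, a neutrophil-attracting chemokine, was at 54.6, 37.6 and 34.2 CPM in 1+3, 1+4 and 1+6, against 57.9 CPM in 1+2. The interferon-induced chemokine CXCL10 averaged 33.2 CPM in 1+3, 1+4 and 1+6 against 4.38 CPM in 1+2, and 242 CPM in 5+8, 6+8 and 7+8 against 2.56 CPM in 5+7. CXCL9 averaged 4.27 CPM in 1+3, 1+4 and 1+6 against 0.626 CPM in 1+2, and 46.0 CPM in 5+8, 6+8 and 7+8 against 0.885 CPM in 5+7. Among the pairs high in IRF1, CCL2 was highest in 1+3, 1+4 and 1+6, where CXCL10 and CXCL9 were lowest. The rule set part of this contrast, since it used these pairs and 5+8, 6+8 and 7+8 to choose CCL2. Within 1+3, 1+4 and 1+6, CXCL10 was at 37.9, 33.1 and 28.5 CPM and fell in the same order as CCL2.

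CXCL2, which also attracts neutrophils, was closer to CCL2 in its order of levels: it averaged 15.7 CPM in 1+3, 1+4 and 1+6 against 5.94 CPM in 1+2, and 4.32 CPM in 5+8, 6+8 and 7+8 against 1.48 CPM in 5+7. CCL7, the neighbour of CCL2 in the same chromosome 17 cluster, averaged 2.07 CPM in 1+3, 1+4 and 1+6 against 1.04 CPM in 1+2, and 0.248 CPM in 5+8, 6+8 and 7+8 against 0.295 CPM in 5+7. It had 197 UMIs over all 18 pairs, too few to reach the rule's minimum.

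Pearson's r over the 18 pairs, on log2(CPM + 1), described which genes ran most alike, with a search of 8658 genes chosen after the values were seen. CCL2 and GRAMD2B had an r of 0.951 with each other, and both were closest to CDKN1A, the p21 inhibitor of cyclin-dependent kinases, at 0.982 for CCL2 and 0.953 for GRAMD2B. The 18 pairs include those that the rule used, so the likeness of CCL2 and GRAMD2B is partly set by the rule. CDKN1A was at 26.8, 25.6 and 23.3 CPM in 1+3, 1+4 and 1+6 against 17.4 CPM in 1+2, and at 15.2, 18.7 and 17.7 CPM in 2+6, 2+8 and 3+4 against 9.25 CPM in 2+4. In the last group CDKN1A was at 7.18, 7.23 and 8.14 CPM in 5+8, 6+8 and 7+8 against 6.79 CPM in 5+7. CDKN1A missed both limits of the rule, with 1+4 and 1+6 at 1.47 and 1.34 times 1+2 and a summed ratio of 1.11 (0.845 to 1.46) to 5+7.

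BCL3 was closest to TMEM173, the cytosolic DNA sensor adaptor STING, at 0.907, and FRMD4B to ZNF579 at 0.849. TMEM121 had no r above 0.697, the value with FZD5. CCL2 and FRMD4B had an r of 0.176 and GRAMD2B and FRMD4B of 0.354, so the 5 genes did not run as 1 group over the pairs. With IRF1 the r was 0.401 for CCL2, 0.484 for FRMD4B, 0.508 for GRAMD2B, 0.599 for TMEM121 and 0.721 for BCL3. All points share 1 pool and 1 pair of libraries, and pairs differed in cell cycle genes, with a summed G2/M level of 1872 to 3447 CPM that was 2344 to 2579 CPM in 1+3, 1+4 and 1+6 and 2139 CPM in 1+2. The part of the cell cycle in these values was not tested.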

How the data were processed

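Single-cell 3' gene expression and hashtag libraries of 1 pool of OVCAR5 cells were used. The authors deposited raw UMI counts per feature and barcode. Per the file headers, Cell Ranger 5.0.1 made the matrix. The genome build, GRCh38, and another version of the tool, Cell Ranger 2.1.1, are named in the submitters' processing notes, and which version applies is not known here. The barcode calling is not stated.

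A barcode was used as a cell with 500 or more genes and 20% or less of its UMIs from mitochondrial genes. The pair of a cell was its 2 highest hashtags where the second held at least 5 times the third plus 1 UMI, which leaves out cells of several pairs; doublets within a pair go unseen, since no doublet caller was used. The UMIs of a pair were added up and scaled to CPM, with exact Poisson intervals, exact conditional intervals of ratios and Clopper-Pearson intervals of shares at 95%, which cover counting error only. With 1 pool there are no replicates and no test. The genes and the lists were chosen with earlier results of these data known.

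The text names all 5 genes of the rule, the 5 genes nearest outside each of its limits, and IRF1; genes named for likeness, from cells high in CCL2 or from the lists were named outside that rule, after their values were seen. Alternatives covered the hashtag rule, cell filter, scaling (median-of-ratios size factors and edgeR 4.0.16 TMM factors), thinning and the rule's limits. The calculation was tested on simulated data for 1+3, 1+4 and 1+6 over 1+2 in 36601 genes, of which 200 were changed. It called 96% of 50 genes changed 2-fold, 90% of 50 changed 3-fold and 0 of 7523 unchanged genes. Calls among the other changed genes are not given. The summed ratios of BCL3 and TMEM121 to 1+2, 1.65 and 1.64, lie below these folds and are not covered by them. How the calls hold for UMIs concentrated in few cells, as for CCL2, is not shown. Nor are the calls given by level. CCL2, TMEM121 and FRMD4B were at 8.06, 8.59 and 9.13 CPM over the cells of the 18 pairs, and how the calls hold at such levels is not shown. Python 3.11.15, numpy 2.4.6, scipy 1.17.1, pandas 2.3.3 and R 4.3.3 were used.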

Additional observations from a re-analysis of the deposited data

Results flagged for a closer look

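Barcodes outside the 18 pairs also held UMIs of the 5 genes, in data that no comparison used. Their summed level was 35.5 CPM in the 603 barcodes that failed the cell filter (141 UMIs; 3 UMIs would be 0.756 CPM) and 54.5 CPM in the 1087 cells without a readable pair (2875 UMIs; 3 UMIs would be 0.0568 CPM), beside 58.2 CPM over the cells of the 18 pairs. In the 1087 cells GRAMD2B was at 14.1 CPM and CCL2 at 7.12 CPM, beside 16.6 and 8.06 CPM in the cells with a pair.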

How the results depend on the processing

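The rule gave 5 genes as set. It gave 13 with cells thinned to 10000 UMIs (of the 5, CCL2 and FRMD4B were kept), 11 with a minimum of 5 CPM, 3 with 20 CPM, 1270 with no minimum, 21 at 1.3 times and 0 at 2 times over 1+2, 2 with a limit of 1 over 5+7 (CCL2 and TMEM121), and 2 without the 3 highest cells of each gene (BCL3 and FRMD4B), a setting chosen after seeing the data. Under the other settings it gave 4 to 7 genes, 5 each without pair 1+3, 1+4 or 1+6. Median-of-ratios and TMM scaling gave 4, without GRAMD2B, and the mean of per-cell CPM gave 4, of which 3 were among the 5. Over 22 settings, CCL2, BCL3 and FRMD4B each met the rule in 19, TMEM121 in 17 and GRAMD2B in 15. The count of 4 genes above 2+4 was 4 in all 12 alternatives. Of 120 recomputed ratios to 1+2 and 5+7, 0 reversed and 2 left their counting interval: BCL3 over 5+7 at 1.27 with thinned cells, and GRAMD2B over 1+2 at 1.64 by the mean of per-cell CPM. The cause was not tested. No paired analysis was possible because the series is 1 pool with no replicates. Depth limits CCL2 in 5+8, 6+8, 7+8, 5+7, 2+5 and 1+5, where 6 to 20 UMIs stand behind a level.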
